A study of Mus musculus with 21 samples.

Results

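The T cell receptor complex and its effector genes were followed through 21 libraries of mouse podocyte fractions. The members were 10 genes of the 27179 listed, listed by name, with earlier results of these data known: the CD3 chains Cd3d, Cd3e and Cd3g, the coreceptor genes Cd4, Cd8a and Cd8b1, the kinase gene Zap70, and the effector genes Gzmk, Eomes and Nkg7. All mice were wildtype C57BL/6J males. The young group held 6 untreated mice of 4 months. The other groups were middle-aged mice of 19.5 months that had received either saline (7 mice) or the NLRP3 inhibitor MCC950 at 10 mg/kg (8 mice) by intraperitoneal injection, 2 injections per week for 6 weeks from 18 months. The young mice were untreated and had no saline injections, so that age and injection cannot be told apart in a comparison with them. Each library came from 1 mouse, whose kidney cortex was digested and enriched for podocytes with nephrin antibodies and magnetic beads, a step that can retain other cells.

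On a T cell, the receptor for antigen has no signalling tail of its own and is carried to the surface with the CD3 delta, epsilon and gamma chains, whose tails are phosphorylated when antigen is bound. CD4 or CD8 brings the kinase Lck to the complex, and ZAP70 then docks on the phosphorylated chains and relays the signal. Granzyme K and NKG7 belong to the granules of cytotoxic T and natural killer cells, and Eomes is a T-box transcription factor of effector and memory CD8 T cells and natural killer cells. T cells are known to gather in the ageing kidney.

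Podocytes are not known to use these genes, and in these libraries the members were scarce. Depth ran from 27375870 to 36827823 counts in the young, from 45772937 to 84876399 in the saline and from 35440472 to 58247271 in the MCC950 libraries. The mitochondrial share was 51.5 to 80.4% in young, 63.0 to 79.2% in saline and 49.9 to 63.7% in MCC950 libraries. Every saline library was deeper than every young one, and a floor of 3 counts corresponded to 0.0747 to 0.168 counts per 1000000 (CPM) in young, 0.0365 to 0.0707 CPM in saline and 0.0388 to 0.0666 CPM in MCC950 libraries. The summed CPM of 15 podocyte markers checked the label: it was 875 to 1856 in young, 358 to 621 in saline and 455 to 734 in MCC950 libraries, and 14 of the 15 were lower in saline than in young libraries. A pair of libraries stood apart in the members. Saline replicate 5 had the highest CPM of its group in 5 members (Cd8a, Cd8b1, Zap70, Eomes and Nkg7), and MCC950 replicate 8 in 5 members (Cd3d, Cd3g, Cd4, Gzmk and Eomes). In a bulk library, fewer cells of a type and less RNA per cell cannot be told apart.

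The CD3 genes lie side by side on chromosome 9. By the RefSeq annotation of GRCm38.p6, 1337 bases separate Cd3g (chr9:44969572-44980431) from Cd3d (chr9:44981769-44987052), which are read in opposite directions, and 11682 bases separate Cd3d from Cd3e (chr9:44998735-45009663). Cd8b1 (chr6:71322788-71337492) and Cd8a (chr6:71373427-71379171) are 35934 bases apart on chromosome 6, which also carries Cd4 (chr6:124864693-124888247). Zap70 lies at chr1:36761798-36782821, Nkg7 at chr7:43437138-43438246, Gzmk at chr13:113171630-113180965 and Eomes at chr9:118478186-118486132. Zap70 overlaps the annotated pseudogene Gm18828 and Eomes the non-coding Gm33408, both not analysed here.

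The 250 bases before the annotated start of Cd3g (chr9:44980432-44980681, minus strand), Cd3d (chr9:44981536-44981785, plus strand), Zap70 (chr1:36761548-36761797, plus strand) and Nkg7 (chr7:43436888-43437137, plus strand) are printed 5′ to 3′ on the gene's strand, because the first pair are neighbours read from a shared interval and the others are the kinase and an effector gene whose values are given below. Capitals mark matches, on either strand, to an E-box (CAGGTG), a cyclic AMP response element core (TGACGT), a T-box core (GGTGTGA), a RUNX site (TGTGGT) or a GATA site (AGATAA). The sequences are from RefSeq on GRCm38.p6, and the end of the Cd3d window lies within the gene span given above.
Cd3g: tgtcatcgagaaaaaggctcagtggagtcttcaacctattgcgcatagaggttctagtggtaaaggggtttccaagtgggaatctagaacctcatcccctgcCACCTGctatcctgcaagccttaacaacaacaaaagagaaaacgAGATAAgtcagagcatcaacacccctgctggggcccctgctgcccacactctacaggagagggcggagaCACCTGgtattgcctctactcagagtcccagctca
Cd3d: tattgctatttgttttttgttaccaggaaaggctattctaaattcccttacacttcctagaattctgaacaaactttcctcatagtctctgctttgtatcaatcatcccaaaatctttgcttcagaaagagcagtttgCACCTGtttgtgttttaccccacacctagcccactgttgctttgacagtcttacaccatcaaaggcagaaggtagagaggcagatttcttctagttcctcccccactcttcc
Zap70: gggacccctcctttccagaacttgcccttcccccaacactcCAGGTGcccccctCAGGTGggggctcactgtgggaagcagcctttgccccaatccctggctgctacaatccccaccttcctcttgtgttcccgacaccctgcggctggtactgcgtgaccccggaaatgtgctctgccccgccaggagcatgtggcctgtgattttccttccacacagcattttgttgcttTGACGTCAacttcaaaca
Nkg7: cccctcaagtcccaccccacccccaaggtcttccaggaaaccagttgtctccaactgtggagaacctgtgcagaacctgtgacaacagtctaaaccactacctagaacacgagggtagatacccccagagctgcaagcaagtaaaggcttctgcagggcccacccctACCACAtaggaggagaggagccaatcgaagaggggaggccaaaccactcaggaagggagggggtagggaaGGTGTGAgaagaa

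The E-box, the site of E proteins and related helix-loop-helix factors, was found before 3 of the 8 members with an entry (Cd3g, Cd3d and Zap70) and in 17.2% of all 32851 promoters of that length. The T-box core, the site of factors such as Eomes itself, was found before Nkg7 and Gzmk, 2 of 8, and in 3.33% of all promoters. The response element core stood before Zap70, where it reads as its own reverse complement and so matched on both strands, and before Cd3e (6.47% of all). The RUNX site was found before Nkg7 (14.0%) and the GATA site before Cd3g (9.99%), with none of the 5 motifs before Cd8a and Eomes. These counts take the first listed start of each gene. Zap70 has further listed starts, one with a RUNX site and one with an E-box. The windows of Gzmk, Cd3e and the Zap70 start with the RUNX site were not matched to a GENCODE transcript read from the same strand, so that their starts are uncertain. The motifs were picked after the sequences had been seen, and a match describes letters, not binding.

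Levels of different genes were compared per kilobase of exon, as RPKM, the CPM divided by the exon length in kilobases. Cd4 was the most abundant member in each group by its median, at 1.80 RPKM in young, 3.24 RPKM in saline and 1.58 RPKM in MCC950 libraries. Its range did not overlap that of the next member in the young and saline groups, but did in the MCC950 group. Nkg7 was second in the saline and MCC950 groups (medians 0.939 and 0.747 RPKM) and Cd8a second in the young group (0.274 RPKM), while Gzmk was last in all 3 groups. From the second place down, every neighbouring pair in the order had overlapping ranges. In saline libraries the medians of the CD3 chains were 0.283 RPKM for Cd3d, 0.148 RPKM for Cd3e and 0.125 RPKM for Cd3g, so that Cd4 RNA was far more abundant per length than the chains of the receptor complex. CD4 is also made by subsets of macrophages and dendritic cells in the mouse.

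The question of age was put to the young and saline libraries. All 9 members that passed the filter on low counts had higher fitted levels in saline-treated middle-aged mice, and 7 of them rose (edgeR quasi-likelihood test with Benjamini-Hochberg adjustment over 16377 genes), none fell. The filter asks for counts in no more libraries than the smallest group holds, so the middle-aged libraries alone could carry a member through it. Cd8b1, Cd3g and Eomes held 17, 21 and 25 counts over all young libraries, so their direction against young was in part set by the filter. Without the filter, 6 of 10 members were called higher with age and 0 lower. Of all tested genes, 12.2% were called higher and 12.4% lower. The median log2 fold change was 1.63 over the 9 members and 0.02 over all genes. The members that rose were the 3 CD3 chains, Cd8b1, Zap70, Eomes and Nkg7, and those that did not pass were Cd4 and Cd8a.

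Cd3d, the delta chain, had 0 to 10 counts in the young libraries. Its CPM was 0 to 0.418 in young (median 0.147), 0.329 to 0.878 in saline (median 0.514) and 0.0636 to 0.514 in MCC950 libraries (median 0.378). All 7 saline libraries lay above the young median and 5 above the highest young library. The rise with age was 3.26-fold (log2 fold change 1.70, SE 0.49, adjusted p = 0.014). Cd3e, the epsilon chain, ran from 0.112 to 0.669 CPM in young (median 0.228), from 0.425 to 1.52 CPM in saline (median 0.604) and from 0.0848 to 0.750 CPM in MCC950 libraries (median 0.378). The groups overlapped, with 3 of 7 saline libraries above the highest young one, young replicate 6. Cd3e was 2.74-fold higher with age (log2 fold change 1.45, SE 0.46, adjusted p = 0.0259), a call lost without young replicate 3, 4 or 5 or saline replicate 2 or 5 (adjusted p = 0.0547 to 0.072). The call was also lost after thinning every library to an equal depth (adjusted p = 0.0721). Cd3g, the gamma chain, ran from 0 to 0.225 CPM in young (median 0.143), from 0.174 to 0.732 CPM in saline (median 0.409) and from 0.0775 to 0.428 CPM in MCC950 libraries (median 0.140). It was 3.37-fold higher with age (log2 fold change 1.75, SE 0.52, adjusted p = 0.0178), with 6 of 7 saline libraries above every young one. Saline replicate 2 was the highest of its group in all 3 chains and saline replicate 4 the lowest.

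**Figure D1:**
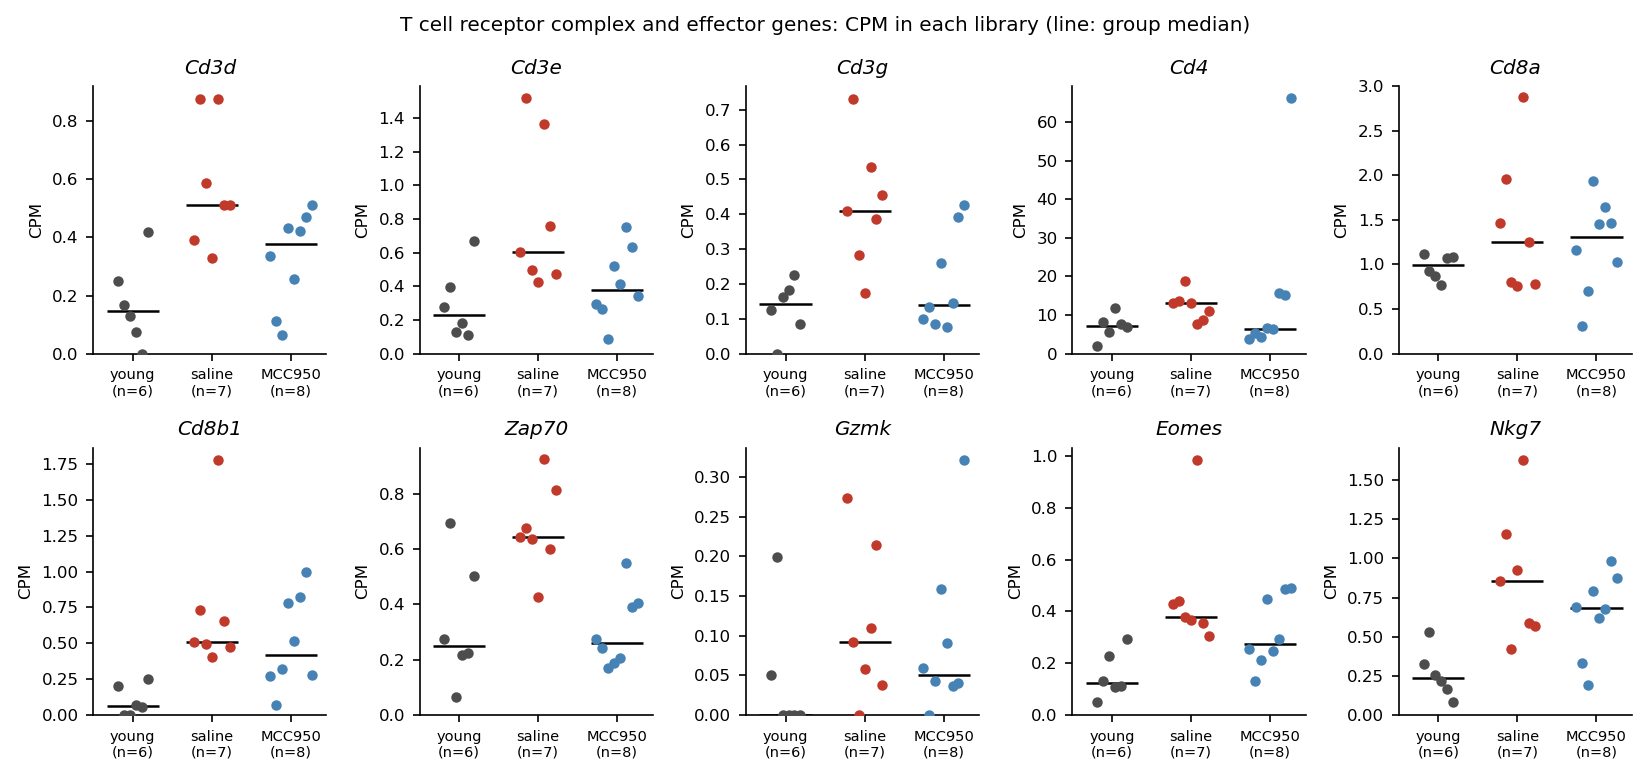
Each point is 1 library, with CPM on the vertical axis (a separate linear scale in each panel, starting at 0) for the 10 members in the young (n = 6), saline (n = 7) and MCC950 (n = 8) groups, and the line is the group median. Saline libraries lie above every young one in Cd8b1 and Eomes, and MCC950 replicate 8 stands alone in Cd4 at 66.1 CPM.

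The coreceptor genes parted. Cd8b1 encodes the beta chain, which pairs with the alpha chain on conventional CD8 T cells, and its CPM was 0 to 0.251 in young (median 0.0645), 0.406 to 1.78 in saline (median 0.507) and 0.0666 to 0.997 in MCC950 libraries (median 0.417). The young libraries held 17 counts in all, with 2 libraries at 0, and no saline library overlapped them. Its fitted rise with age was the largest of the members, 7.26-fold (log2 fold change 2.86, SE 0.66, adjusted p = 0.0035), although a value this close to 0 depends on the prior count. Cd8a, the alpha chain, which a class of dendritic cells also makes without the beta chain, was 0.765 to 1.12 CPM in young (median 0.998), 0.754 to 2.87 CPM in saline (median 1.26) and 0.311 to 1.94 CPM in MCC950 libraries (median 1.30). The groups overlapped, 3 of 7 saline libraries lying below the young median. Its log2 fold change with age was 0.55 (95% confidence interval -0.19 to 1.28, adjusted p = 0.278), and 0.27 without saline replicate 5. Cd4 was 1.99 to 11.8 CPM in young (median 7.25), 7.67 to 18.8 CPM in saline (median 13.1) and 3.78 to 66.1 CPM in MCC950 libraries (median 6.38). All 7 saline libraries were above the young median, yet the difference with age did not pass (log2 fold change 0.81, 95% confidence interval -0.37 to 1.99, adjusted p = 0.321). Among all genes tested, 4.51% had every saline library above every young one, as Cd8b1 and Eomes did (2 of 9 members).

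Since the CD8 chains differed, the share of Cd8b1 in the summed counts of Cd8a and Cd8b1 was taken in each library, a measure chosen after the values were seen. It was 0 to 18.8% in young (7.92% ± 7.79, SD, n = 6), 25.7 to 38.2% in saline (33.8% ± 5.25, SD, n = 7) and 17.7 to 40.4% in MCC950 libraries (27.3% ± 7.77, SD, n = 8). Every saline library was above every young one, as were 7 of 8 MCC950 libraries. The mean of the MCC950 libraries differed from that of the saline libraries by -6.52 percentage points, and by -3.12 percentage points after thinning to equal depth. These shares are given as a description, since the pair was chosen for its difference, and the p-values of their exact permutation tests are left out. The share of Cd3e in the counts of Cd4 and Cd3e was 5.14% ± 4.43 in young (SD, n = 6), 6.76% ± 4.55 in saline (SD, n = 7) and 4.58% ± 2.44 in MCC950 libraries (SD, n = 8). None of its 3 comparisons passed (exact permutation p = 0.535 with age, 0.278 with MCC950 and 0.764 between MCC950 and young, adjusted p = 0.642, 0.417 and 0.764). The adjustment was over 6 share comparisons, which include those of the Cd8b1 share.

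**Figure D2:**
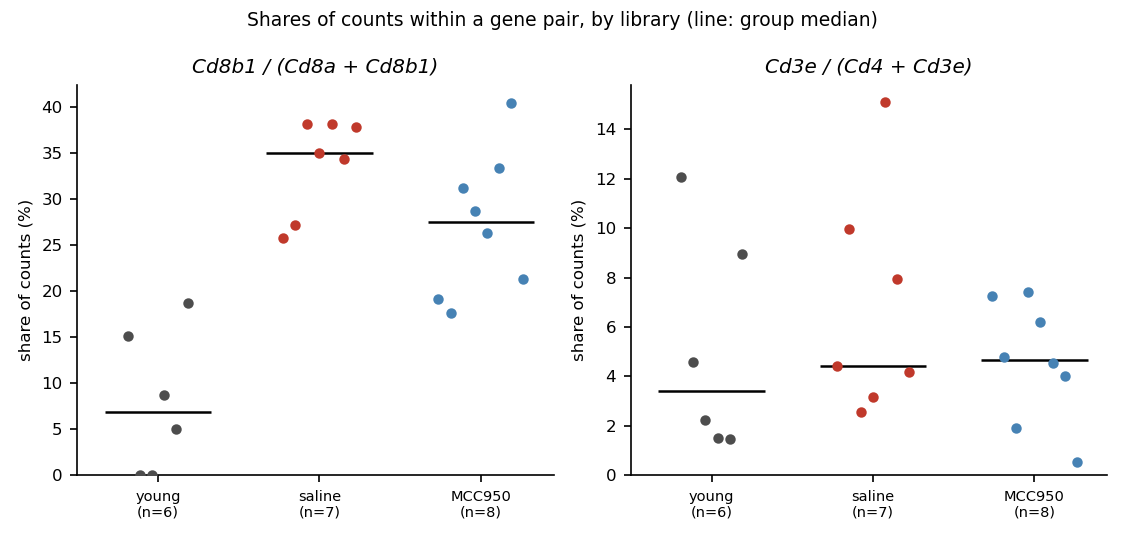
Each point is 1 library, the vertical axis is a share of counts in percent on a linear scale from 0, and the line is the group median for young (n = 6), saline (n = 7) and MCC950 (n = 8) mice. The share of Cd8b1 is at most 18.8% in young and at least 25.7% in saline libraries, whereas the share of Cd3e overlaps in all 3 groups.

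Zap70, the kinase that reads the phosphorylated CD3 tails, was 0.0646 to 0.696 CPM in young (median 0.249), 0.425 to 0.925 CPM in saline (median 0.643) and 0.170 to 0.549 CPM in MCC950 libraries (median 0.260). Young and saline libraries overlapped, with young replicate 2 at 0.696 CPM above 5 of the 7 saline libraries. The rise with age was 2.04-fold (log2 fold change 1.03, SE 0.37, adjusted p = 0.0459), the largest adjusted p of the 7 calls. It was lost on leaving out any 1 of 12 libraries, namely young replicates 1, 3, 4 and 5, saline replicates 1, 2, 3, 5, 6 and 7 and MCC950 replicates 1 and 2 (adjusted p = 0.0504 to 0.113). It was also lost with RLE size factors (adjusted p = 0.0511), without the filter on low counts (adjusted p = 0.0581) and with only the young and saline groups in the fit (adjusted p = 0.0534).

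Among the effector genes, Eomes rose 3.10-fold with age without overlap between the groups. Its CPM was 0.0498 to 0.293 in young (median 0.123), 0.303 to 0.986 in saline (median 0.377) and 0.133 to 0.492 in MCC950 libraries (median 0.274), and the log2 fold change with age was 1.63 (SE 0.41, adjusted p = 0.0063). Nkg7 was 0.0836 to 0.530 CPM in young (median 0.239), 0.424 to 1.63 CPM in saline (median 0.858) and 0.191 to 0.984 CPM in MCC950 libraries (median 0.683). With 6 of 7 saline libraries above every young one, it rose 3.22-fold (log2 fold change 1.69, SE 0.41, adjusted p = 0.0048). Gzmk did not pass the filter: it had 0 counts in 4 of 6 young libraries and at most 6 counts there, and 0 to 15 counts in the saline and in the MCC950 libraries. Its mean was 0.0414 CPM in young, 0.112 CPM in saline and 0.0936 CPM in MCC950 libraries, a difference that was not detectable at this depth (exact two-sided permutation p = 0.183 with age, 0.716 with MCC950 and 0.348 between MCC950 and young, adjusted p = 0.522, 0.716 and 0.522). Without young replicate 2, which held 6 of the 8 young counts, the exact permutation p was 0.0278 with age and 0.0326 between MCC950 and young, unadjusted.

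Marker lists of other cells moved with these genes. Some list scores were entered as covariates below, but the cause of the result was not tested. B and plasma cell markers summed to 44 to 211 CPM in young and 415 to 616 CPM in saline libraries, with 5 of 11 higher and none lower. Macrophage and myeloid markers summed to 485 to 2471 CPM in young and 1751 to 4264 CPM in saline libraries (5 of 14 higher), and dendritic cell markers to 45.7 to 108.7 CPM and 91.5 to 174 CPM (4 of 9 higher, 1 lower). In the other direction, 8 of 9 endothelial and 6 of 8 mesangial and smooth muscle markers were lower, with median log2 fold changes of -1.05 and -1.13. With the macrophage score as a covariate, 3 of the 9 members remained called with age (Cd8b1, Eomes and Nkg7), and with the podocyte score or the B and plasma cell score 0 did. The podocyte and the B and plasma cell sums did not overlap between young and saline libraries, so that in those fits the score and the group cannot be told apart. After thinning every library to an equal depth outside the mitochondrial genes, 6 members passed the filter and 3 were called with age (Cd8b1, Zap70 and Nkg7). The call of Cd3e was lost there (log2 fold change 1.24, adjusted p = 0.0721), and Cd3d, Cd3g and Eomes did not pass the filter. No CD3 chain was therefore called with age at equal depth.

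The effect of the NLRP3 inhibitor was read between MCC950 and saline libraries, and these saline libraries are shared with the comparison of age. Of the 9 members, 8 had lower fitted levels with MCC950. Only Zap70 passed the test, 1 of 9 lower and 0 higher, where 4.86% of all genes were called lower and 11.9% higher. At an unadjusted p under 0.05, 4 members were lower (Zap70, Cd3g, Cd3e and Cd3d) and 0 higher, beside 11.4% of all genes lower and 20.1% higher. The median log2 fold change was -0.54 over the members and 0.00 over all genes.

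Zap70 was 2.22-fold lower in MCC950 than in saline mice (log2 fold change -1.15, SE 0.32, adjusted p = 0.0191). All 8 MCC950 libraries were below the saline median and 7 of them below the lowest saline library. The call held on leaving out each library in turn and was lost with the podocyte score as a covariate (log2 fold change -0.96, adjusted p = 0.0677). The Zap70 level with MCC950 lay near that of the young mice, the log2 fold change between them being -0.12 (95% confidence interval -0.89 to 0.65, adjusted p = 0.82). Beside it, 5 of 15 podocyte and 7 of 12 proximal tubule markers were higher with MCC950 and 2 of 9 endothelial markers lower, while 0 of 14 macrophage and myeloid, 0 of 9 dendritic cell and 0 of 11 B and plasma cell markers passed. Apart from covariate fits, the part of these cells in the Zap70 value was not tested.

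The CD3 chains had lower fitted levels with MCC950, and none passed the adjusted test. The log2 fold change was -1.06 for Cd3g (95% confidence interval -1.90 to -0.21, adjusted p = 0.0765), -0.95 for Cd3e (-1.75 to -0.15, adjusted p = 0.0917) and -0.83 for Cd3d (-1.63 to -0.03, adjusted p = 0.145). For Cd3d all 8 MCC950 libraries were below the saline median, and for Cd3g 7 of 8. Cd3g came under the threshold without MCC950 replicate 7 (adjusted p = 0.0346) or 8 (adjusted p = 0.0409), and Cd3e without MCC950 replicate 6 (adjusted p = 0.0493).

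Coreceptor and effector genes did not pass with MCC950. The log2 fold change was -0.50 for Cd8b1 (95% confidence interval -1.46 to 0.46, adjusted p = 0.489), -0.22 for Cd8a (-0.87 to 0.43, adjusted p = 0.671), -0.54 for Eomes (-1.20 to 0.12, adjusted p = 0.254) and -0.44 for Nkg7 (-1.12 to 0.24, adjusted p = 0.376). These intervals still hold a fall by more than a log2 unit for Cd8b1, Eomes and Nkg7. Without saline replicate 5 the log2 fold changes were nearer 0, at -0.08 for Cd8b1, -0.23 for Eomes and -0.21 for Nkg7, and at 0.06 for Cd8a. Cd4 alone had a fitted value above 0 (log2 fold change 0.33, 95% confidence interval -0.74 to 1.39, adjusted p = 0.702), and that value rested on MCC950 replicate 8, with 3091 counts and 66.1 CPM against at most 15.8 CPM in the other 7 MCC950 libraries. Without it the log2 fold change was -0.58 (adjusted p = 0.263). The same library held 51.3 CPM of Siglech, a gene of plasmacytoid dendritic cells and of some myeloid cells, against at most 2.55 CPM in the other MCC950 libraries, and the highest macrophage and myeloid sum of its group, 4260 CPM. Ccr9, also on the dendritic cell list, was at most 0.512 CPM in the MCC950 group, in replicate 6. In replicate 8 Cd3d (0.514 CPM) and Cd3g (0.428 CPM) were also the highest of the MCC950 group, while Cd3e was at 0.342 CPM and not the highest. The part of these cells in the Cd4 value was not tested.

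**Figure D3:**
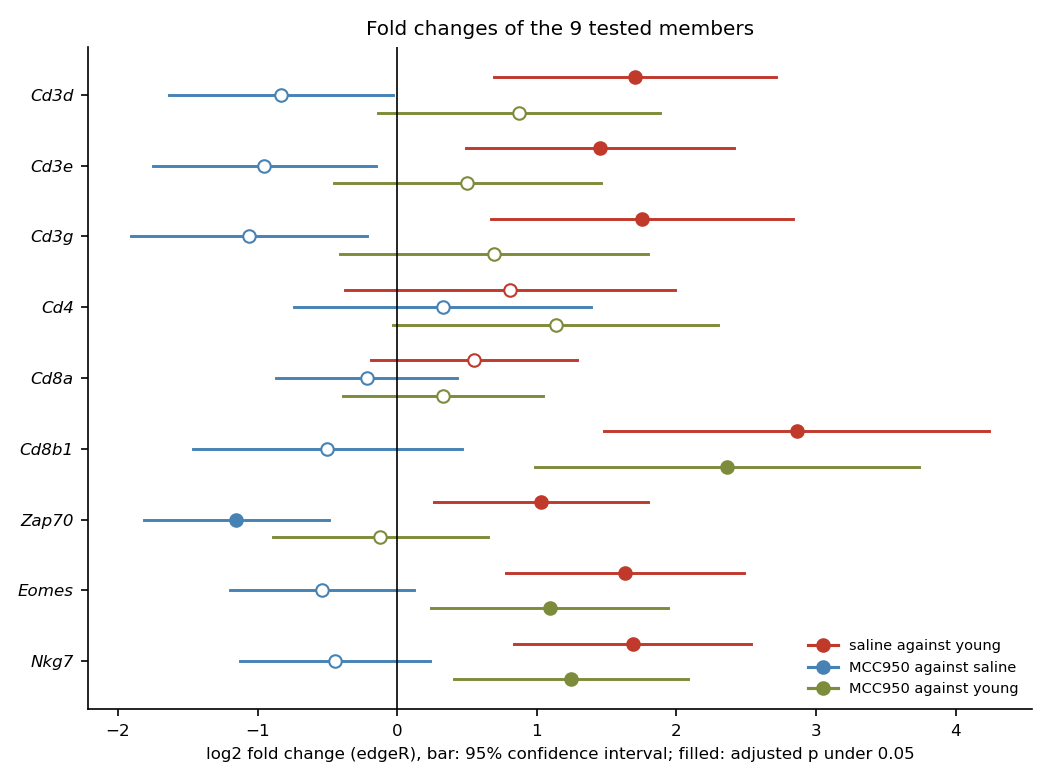
Points are log2 fold changes from edgeR for the 9 tested members (vertical axis) in 3 comparisons, on a linear log2 axis, with bars for the 95% confidence interval and filled points where the adjusted p is under 0.05. With age 7 points are filled, with MCC950 against saline only Zap70 at -1.15, and between MCC950 and young Cd8b1, Eomes and Nkg7.

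Set beside the young mice, MCC950-treated mice were higher in 3 of 9 members, Cd8b1, Nkg7 and Eomes, and lower in 0, where 21.8% of all genes were called higher and 16.5% lower. Cd8b1 was 5.14-fold higher (log2 fold change 2.36, SE 0.66, adjusted p = 0.0082), with all 8 MCC950 libraries above the young median and 7 above every young library. Nkg7 was 2.37-fold higher (log2 fold change 1.24, SE 0.40, adjusted p = 0.0191), a call that went to adjusted p = 0.0501 without young replicate 6. Eomes was 2.13-fold higher (log2 fold change 1.09, SE 0.41, adjusted p = 0.0396), a call lost on leaving out any 1 of 11 libraries: young replicates 1, 2, 4 and 5, saline replicates 1, 2, 3 and 6 and MCC950 replicates 4, 7 and 8 (adjusted p = 0.0502 to 0.0987). The log2 fold changes of the CD3 chains were 0.88 for Cd3d, 0.69 for Cd3g and 0.50 for Cd3e, and none passed (adjusted p = 0.16 to 0.403). For Cd4 the log2 fold change against young was 1.14 (adjusted p = 0.113), and 0.23 without MCC950 replicate 8. For Cd8a it was 0.33 (adjusted p = 0.473). In this comparison 14 of 15 podocyte, 9 of 9 endothelial and 7 of 8 mesangial and smooth muscle markers were lower, and 5 of 14 macrophage and myeloid, 4 of 11 B and plasma cell and 7 of 12 proximal tubule markers higher. Their part in the members' values was not tested.

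The members were also compared with one another across the 21 libraries, after the group means had been taken out of the log2 CPM. Over 9 pairs with Cd3e, 6 correlations passed by a permutation test with 100000 resamples. The share of all tested genes that correlate as well with Cd3e was not taken, so this count has no background. Against the mean of the CD3 chains, Ftl1 and Rps6, which are not members, reached r = 0.83 and 0.76. Whether the relation is particular to the members was not tested. Pearson's r with Cd3e was 0.81 for Cd3d (rho = 0.78, adjusted permutation p = 0.00018 for r), 0.65 for Zap70 (rho = 0.69, adjusted permutation p = 0.0046), 0.64 for Cd8a (rho = 0.75, adjusted permutation p = 0.0046) and 0.59 for Cd8b1 (rho = 0.67, adjusted permutation p = 0.011). It was 0.49 for both Eomes (rho = 0.52) and Nkg7 (rho = 0.51, adjusted permutation p = 0.036 for each r). Without the 2 libraries farthest from the median of Cd3e, r was 0.70 for Cd3d, 0.58 for Zap70 and 0.68 for Cd8a, and fell to 0.38 for Eomes, whose relation rested in part on those libraries. Cd4 did not follow Cd3e (r = 0.15, rho = 0.14, adjusted permutation p = 0.59), nor did Gzmk (r = 0.28, rho = 0.38, adjusted permutation p = 0.29). Cd3g, at 21 counts over all young libraries, did not either (r = 0.12, rho = 0.12, adjusted permutation p = 0.59). All points share a fraction and a library preparation, and at these counts sampling noise lowers any r.

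Outside the members, likeness to the mean of the 3 CD3 chains was taken over the 21 libraries, again without the group means. The highest were Ftl1 (r = 0.83), the ferritin light chain, and Slc7a6os (r = 0.82). They were followed by Rpl5-ps2, Rps6, Rps25, 1 gene without a symbol and 9130401M01Rik (r = 0.78 to 0.73). The likeness is given as a description of 16377 genes in 21 libraries with small CD3 counts. The mean includes Cd3g, which did not follow Cd3e.

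The wider T cell program was read on 5 lists, chosen with earlier results of these data known. Together they held 84 genes, of which 68 were tested: 17 rose and 3 fell with age, and 1 rose and 5 fell with MCC950. Listed genes too could pass the filter through the middle-aged libraries alone. Over all genes tested, 12.2% rose and 12.4% fell with age, and 11.9% rose and 4.86% fell with MCC950. The median log2 fold change was 0.53 with age and -0.32 with MCC950. Between MCC950 and young libraries 8 rose and 9 fell, beside 21.8% and 16.5% of all genes. The number called with age, 20, was 12 with the macrophage score as a covariate, 3 with the B and plasma cell score and 0 with the podocyte score.

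Of 23 tested genes of receptor signalling, 6 rose with age and 1 fell. Among them were Trbc2, a constant segment of the receptor beta chain (log2 fold change 1.60, adjusted p = 0.0076), the exchange factor Vav1 (0.99, adjusted p = 0.007), the adaptor Lcp2 (0.94, adjusted p = 0.0116) and the phosphatase Ptpn22 (0.88, adjusted p = 0.0166). Vav1, Lcp2 and Ptpn22 are shared with other blood cells. Plcg1, a widely expressed phospholipase named here after its value was seen, fell (log2 fold change -0.35, adjusted p = 0.0413). With MCC950 all 23 had fitted values below 0 and 1 passed, the kinase gene Prkcq (log2 fold change -0.56, adjusted p = 0.0335).

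Cytotoxic effector genes rose in 5 of 20 with age, beside 12.2% of all genes: Cst7, a cystatin of cytotoxic granules (log2 fold change 2.22, adjusted p = 0.0049), Prf1, perforin (1.62, adjusted p = 0.0049), Tbx21, the T-box factor T-bet (1.60, adjusted p = 0.0069), the protease Ctsw (0.97, adjusted p = 0.0165) and the receptor subunit Il2rb (1.29, adjusted p = 0.0263). None fell, and 15 did not pass, although 18 of the 20 had fitted values above 0. Among those that did not pass were the granzyme genes Gzma (log2 fold change -0.16, adjusted p = 0.885), Gzmb (0.42, adjusted p = 0.589) and Gzmm (0.29, adjusted p = 0.597). With MCC950 only Klrk1, the receptor NKG2D, passed, and it fell (log2 fold change -0.76, adjusted p = 0.0221). Prf1, Tbx21 and Cst7 were higher in MCC950 than in young mice (log2 fold change 1.42, 1.66 and 1.72, adjusted p = 0.007, 0.0029 and 0.0153).

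Of 13 naive and memory T cell genes, Il7r (log2 fold change 1.48, adjusted p = 0.0012) and Cxcr3 (1.41, adjusted p = 0.0033) rose with age. Gata3, which kidney cells also express, fell (-0.70, adjusted p = 0.0045). With MCC950, Il7r (log2 fold change -0.80, adjusted p = 0.0362) and the transcription factor gene Lef1 (-1.06, adjusted p = 0.0189) fell. Of 7 regulatory T cell genes, 3 rose with age: the checkpoint receptor Ctla4 (log2 fold change 2.50, adjusted p = 0.0015), Il2ra (1.34, adjusted p = 0.0224) and Tnfrsf18 (0.51, adjusted p = 0.0316). Foxp3 (1.375, adjusted p = 0.149) and Tnfrsf4 (0.87, adjusted p = 0.103) did not pass, and Ikzf2 (-0.48, adjusted p = 0.0943) and Ikzf4 (-0.50, adjusted p = 0.132) had fitted values below 0. Between MCC950 and young mice, Ctla4 and Il2ra were higher (log2 fold change 1.93 and 1.43, adjusted p = 0.0052 and 0.0094) and Ikzf2 and Ikzf4 lower (-0.79 and -0.74, adjusted p = 0.0041 and 0.0165). Tnfrsf18 fell with MCC950 (log2 fold change -0.61, adjusted p = 0.0121). Of 14 natural killer and gamma-delta T cell genes only 5 passed the filter. Klrb1c, the receptor NK1.1, rose with age (log2 fold change 1.50, adjusted p = 0.0303), and Sox13 fell (-0.69, adjusted p = 0.00089). Ncr1, which defines natural killer cells, had at most 18 counts in a library, Klra4 was at 0 in 14 of the 21 and Trdc, a gamma-delta receptor segment, at 0 in 9.

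**Figure D4:**
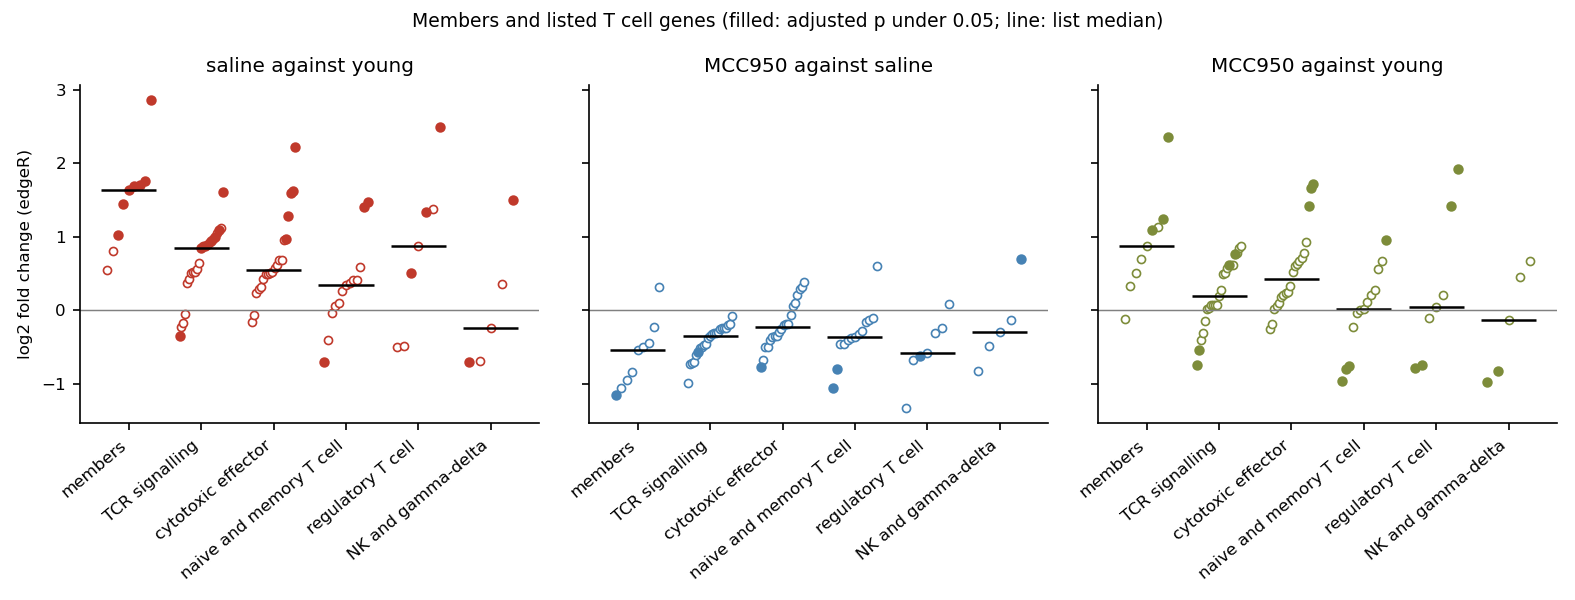
Each point is the log2 fold change of 1 tested gene from edgeR (vertical axis), for the 9 tested members and the 5 T cell lists (horizontal axis) in the 3 comparisons, filled where the adjusted p is under 0.05, with a line at the list's median. The median of the members is 1.63 with age and -0.54 with MCC950, and all 23 receptor signalling genes lie below 0 with MCC950.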

How the data were processed

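Podocyte-fraction mRNA was sequenced from 21 mice, 1 library each. Per the labels and methods, the authors trimmed reads with Trim Galore, aligned them with Bowtie2 to mm10 (GRCm38) and made gene counts with featureCounts. The annotation release and strand setting were not given in the sources used here, so reads of overlapping genes cannot be assigned. The deposited files hold raw counts for 27179 genes by Entrez number, 25275 of which were named from RefSeq and 18 from GENCODE. The authors' table of DESeq2-normalized values was not used.

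The counts were tested with edgeR 4.0.16 (R 4.3.3, TMM scaling, filterByExpr by group, quasi-likelihood test, 3 groups in 1 fit, Benjamini-Hochberg adjustment over 16377 genes, threshold 0.05). CPM are counts per 1000000 of the TMM-scaled library, mitochondrial reads included. RPKM used GENCODE exon lengths. The log2 CPM were also taken from edgeR (prior count 2). DESeq2 1.42.0 and scipy 1.17.1 (two-sided exact permutation tests) were used besides. A floor of 3 counts covers counting error only. The alternatives were other size factors and filters, thinning to 5804891 counts outside the mitochondrial genes, leaving out libraries, a replicate block and marker scores as covariates. Leaving out saline replicate 5 with MCC950 replicate 8 and the shares of gene pairs were added after the data had been seen. No library duplicated another (lowest chi-square per degree of freedom 17.7 over 64 pairs). Same-numbered libraries did not pair (correlations from -0.144 to 0.401).

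The members and lists were chosen with earlier results of these data known. All members are named, and from each other list the genes called, or the 5 of smallest p where more were called, with the 8 non-members most like the CD3 mean; some genes that this rule names are not reported here.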

Additional observations from a re-analysis of the deposited data

Results flagged for a closer look

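In 30 groups of 6 to 8 libraries (10 members in 3 groups), the highest or lowest value was set against the rest with Dixon's criterion. Its chance rate of about 5% of groups assumes normally spread values, which low counts such as these need not follow. The number of groups marked is therefore a description and is not set against that rate. In 4 groups the highest library stood apart. Cd4 in MCC950 replicate 8 was at 66.1 CPM with the next library at 15.8 CPM, a gap of 0.808 of the group's range. Cd8b1 and Eomes both stood apart in saline replicate 5, at 1.78 CPM (next 0.732 CPM, gap 0.762 of the range) and 0.986 CPM (next 0.439 CPM, gap 0.801 of the range). Gzmk in young replicate 2 was at 0.199 CPM with the next at 0.0498 CPM, a gap of 0.75 of the range that rests on 6 counts. Saline replicate 5 had the lowest summed macrophage and myeloid markers of its group (1751 CPM), the lowest podocyte markers (358 CPM) and the highest red blood cell markers (262 CPM), and MCC950 replicate 8 the highest macrophage and myeloid (4260 CPM) and red blood cell markers (143 CPM) of its group. Without both libraries, the calls of Cd3d, Cd3g, Cd8b1, Eomes and Nkg7 with age and of Zap70 with MCC950 held, and those of Cd3e and Zap70 with age were lost.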

How the results depend on the processing

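Over 33 other settings, members called with age (7 of 9) were 3 of the 6 tested after thinning and 3 with macrophage markers as a covariate. They were 0 with the podocyte or the B and plasma cell score, and 5 to 7 on leaving out 1 library. Zap70 was lost with RLE size factors, without the filter and with only 2 groups in the fit. Members called with MCC950 against saline (1) were 0 with the podocyte score and 1 to 2 on leaving out 1 library (2 without MCC950 replicate 6, 7 or 8), and those against young (3) were 0 with the podocyte or the B and plasma cell score and 2 to 3 on leaving out 1 library. The podocyte sums did not overlap between young (875 to 1856 CPM) and MCC950 libraries (455 to 734 CPM), so that this score and the group cannot be told apart there either. With the replicate block, although the numbers pair no mice, 2 members were called with MCC950 against saline (Cd3g added, adjusted p = 0.0428) and 1 against young, Cd4 turned to -0.76 and listed genes called with MCC950 went from 6 to 10.

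Listed T cell genes called were, with age (20), 12 with the macrophage, 0 with the podocyte and 3 with the B and plasma cell score, and 13 to 24 on leaving out 1 library (13 without young replicate 3). With MCC950 against saline (6) they were 3 with the podocyte score and 3 to 11 on leaving out 1 library (3 without saline replicate 7, 10 without MCC950 replicate 6, 11 without MCC950 replicate 7). Against young (17) they were 0 with the podocyte and 8 with the B and plasma cell score, and 13 to 20 on leaving out 1 library.

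Signs turned as follows (log2 fold changes), and in the podocyte-score fits with age and against young the score and the group cannot be told apart. With the podocyte score as a covariate, Cd3d, Cd3e, Cd8a and Cd8b1 went to -0.25, -0.27, -1.55 and -0.26 with age, Cd8a and Cd8b1 to 0.34 and 0.42 with MCC950 against saline, and Cd3d, Cd3e, Cd3g, Cd8a and Eomes to -0.61, -0.75, -0.40, -1.21 and -0.062 against young. With the macrophage score Cd4 went to -0.51 with age and -0.21 against young, and with the B and plasma cell score Cd3e and Cd8a went to -0.22 and -0.051 against young. With MCC950 against saline, Cd4 ranged from -0.58 (without MCC950 replicate 8) to 0.47 and Cd8a from -0.35 to 0.06 (without saline replicate 5) on leaving out 1 library, and without both libraries Cd4, Cd8a and Cd8b1 were at -0.67, 0.092 and 0.0046. Cd8b1 ran from -0.71 to -0.083 (without saline replicate 5) on leaving out 1 library. Zap70 against young went to 0.029 after thinning and ranged from -0.36 to 0.25 (without young replicate 2) on leaving out 1 library, with 0.005 without young replicate 6. The cause was not tested.

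On leaving out 1 library, differences in the Cd8b1 share ran from 24.3 to 28.0 percentage points with age, -8.40 to -5.15 with MCC950 and 17.5 to 21.5 against young. Those in the Cd3e share ran from 0.228 to 3.01, -2.88 to -0.788 and -1.30 to 0.831 (turned at 0.021 without MCC950 replicate 8, 0.831 without young replicate 1 and 0.201 without young replicate 6), and those in Gzmk from 0.0437 to 0.102, -0.0509 to 0.0084 (turned without saline replicate 1) and 0.0197 to 0.0837 CPM. After thinning, the Cd8b1 share differed by -3.12 with MCC950, and the Cd3e share by 0.743 with age, -3.70 with MCC950 and -2.96 against young. Depth limits Gzmk and the young libraries most, where 3 counts are up to 0.168 CPM.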
